A study of Mus musculus with 13 samples.

Results

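Transcripts of 10 genes for lipid droplet proteins and for the release of stored fat were followed in the liver of mice treated with streptozotocin (STZ) and of mock-injected mice. The genes were chosen by name: the perilipins Plin2, Plin3, Plin4 and Plin5, the CIDE proteins Cidea, Cideb and Cidec, and the lipolysis genes Pnpla2, G0s2 and Mgll. All 10 were found among the 19938 named genes of the array, each with 1 probe set. STZ is taken up by the beta cells of the pancreas and kills them by alkylating their DNA, which leaves the animal short of insulin. The STZ group was 6 male wild-type C57BL/6N mice injected intraperitoneally with 65 mg/kg STZ on 5 consecutive days at an age of 10 to 16 weeks. The control group was 7 male wild-type C57BL/6N mice that received mock injections of citrate buffer. The design text of the series speaks only of a standard diet for them. Livers of both groups were taken 9 to 11 weeks after the injections, at an age of 5 to 6 months, and the RNA of each mouse was hybridised to its own Affymetrix mouse gene array. The labels call the arrays of a group biological replicates, and the median log2 intensity of an array lay between 6.22 and 6.31. They name no blood glucose, feeding state or hour at which the livers were taken.

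Lipid droplets are the stores of neutral fat in a cell, a core of triglyceride and sterol ester under a single layer of phospholipid that carries its own set of proteins. Perilipins coat the surface and limit or direct the access of lipases, while CIDE proteins promote the fusion and growth of droplets and, in liver, the loading of lipoproteins. Triglyceride is broken down stepwise: Pnpla2 (adipose triglyceride lipase, ATGL) removes a fatty acid from triglyceride, G0s2 binds and inhibits that lipase, and Mgll (monoacylglycerol lipase) splits the monoacylglycerol left at the end. Insulin restrains lipolysis in fat tissue, and many droplet genes of liver are known targets of the fatty acid-sensing PPAR nuclear receptors and of the insulin- and sugar-responsive factors of fat synthesis.

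In STZ livers 5 of the 10 genes fell and none rose in limma, where a gene passed if its adjusted p was under 0.05. Among all 19938 genes 9.12% passed in either direction, 4.04% being lower and 5.09% higher. The genes that fell were Cidec, G0s2, Mgll, Plin2 and Plin4. Cidec fell by 1.34 ± 0.18 log2 units and G0s2 by 1.26 ± 0.11 (here and below ± is the SE of the limma fit unless an SD is named), so that their signals were 60.5% and 58.3% lower. Mgll fell by 0.91 ± 0.17, a signal 46.9% lower. Plin2 and Plin4 fell by smaller amounts. The values of the 6 STZ and 7 control arrays did not overlap for Cidec, G0s2 and Mgll, 3 of the 10 genes, while 1.56% of all genes were lower without overlap. The differences of Cidea, Cideb, Plin3, Plin5 and Pnpla2 did not pass. The median difference was -0.26 over the 10 genes and -0.01 over all genes. Because the whole liver was measured, fewer cells of a type and less RNA per cell cannot be told apart.

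**Figure D1:**
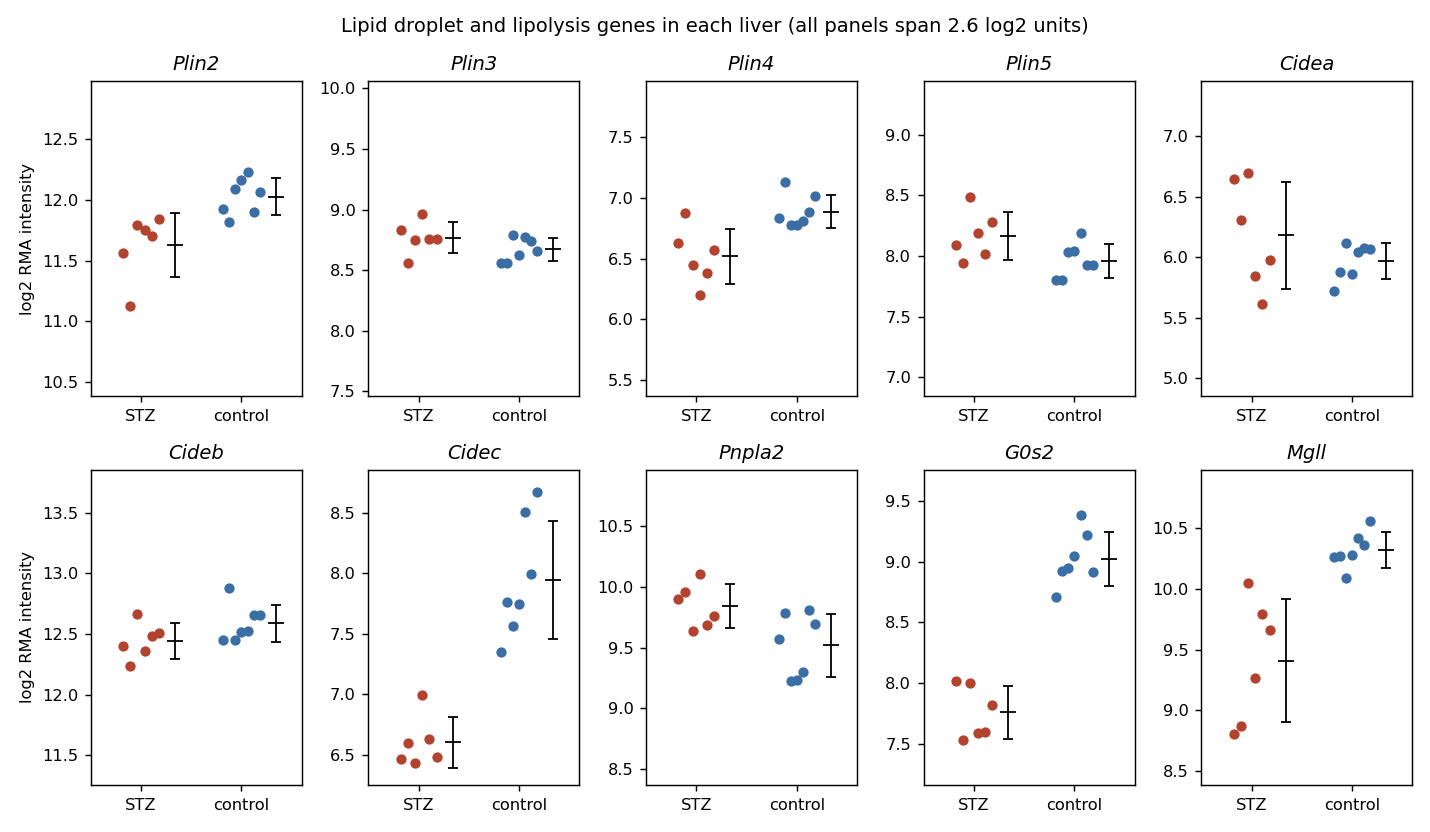
Log2 RMA intensity of each of the 10 genes in every array, STZ at the left and control at the right of each panel. Points are mice, the bar beside them is the mean with its SD (n = 6 STZ, n = 7 control), and every panel spans the same number of log2 units. The 2 groups are apart for Cidec, G0s2 and Mgll and share part of their range in the other panels.

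**Figure D2:**
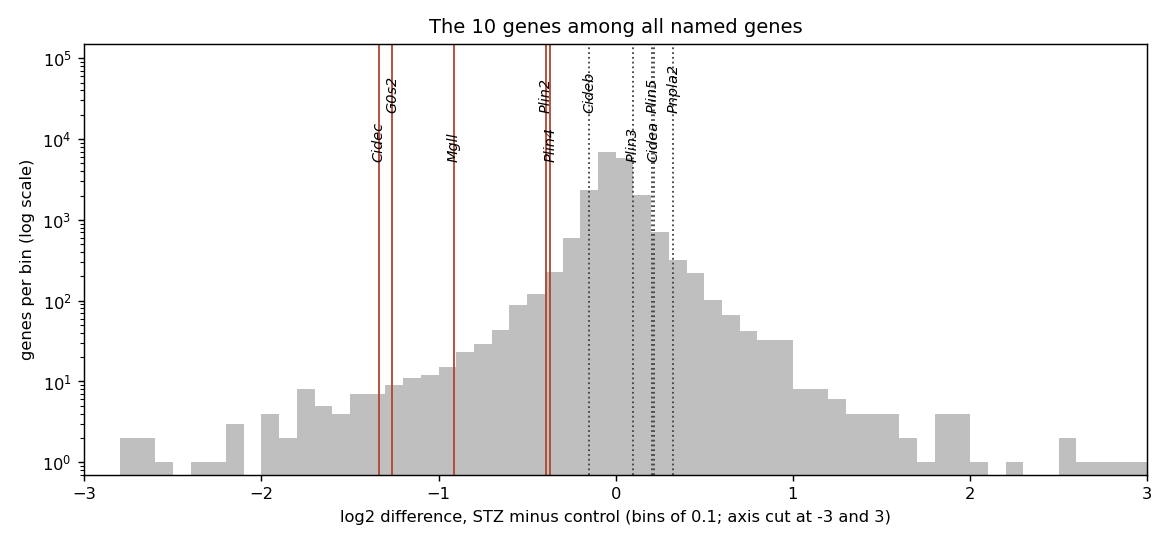
Histogram of the log2 difference, STZ minus control, of all 19938 named genes (log scale for the number of genes), with a line for each of the 10 genes. Solid red lines are the 5 genes that passed in limma, dotted lines the 5 that did not. Cidec, G0s2 and Mgll lie in the sparse lower tail, and the others lie between -0.40 and 0.32.

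The sequences just before the transcription starts of the 5 genes that fell are shown because these genes moved in the same direction. They are the 250 bases before the start, 5′ to 3′ on the strand of the gene, from RefSeq (GRCm38.p6). For Cidec and Mgll, which have 2 starts in that table, the upstream start is shown. Capitals mark matches to the letters of the motifs named after the sequences.
Plin2 (chr4:86670060-86670309, minus strand): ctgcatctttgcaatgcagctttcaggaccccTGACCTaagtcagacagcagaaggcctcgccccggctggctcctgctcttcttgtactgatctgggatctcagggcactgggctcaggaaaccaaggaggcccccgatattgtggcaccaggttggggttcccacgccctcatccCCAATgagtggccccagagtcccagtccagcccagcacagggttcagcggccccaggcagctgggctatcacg
Plin4 (chr17:56109783-56110032, minus strand): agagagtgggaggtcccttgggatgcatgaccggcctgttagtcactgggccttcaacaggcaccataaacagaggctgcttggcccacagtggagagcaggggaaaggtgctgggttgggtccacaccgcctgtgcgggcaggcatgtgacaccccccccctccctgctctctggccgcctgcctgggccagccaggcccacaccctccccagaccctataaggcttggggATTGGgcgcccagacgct
Cidec (chr6:113435761-113436010, minus strand): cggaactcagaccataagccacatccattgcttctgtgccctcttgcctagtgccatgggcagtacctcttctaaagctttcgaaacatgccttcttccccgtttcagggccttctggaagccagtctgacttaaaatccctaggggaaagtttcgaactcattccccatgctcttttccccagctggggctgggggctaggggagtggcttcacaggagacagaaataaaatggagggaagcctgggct
G0s2 (chr1:193273189-193273438, minus strand): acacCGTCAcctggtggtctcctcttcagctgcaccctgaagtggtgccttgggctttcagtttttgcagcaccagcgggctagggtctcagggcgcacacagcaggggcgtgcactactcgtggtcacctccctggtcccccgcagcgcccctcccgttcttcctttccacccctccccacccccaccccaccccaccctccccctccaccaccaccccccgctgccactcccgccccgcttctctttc
Mgll (chr6:88724162-88724411, plus strand): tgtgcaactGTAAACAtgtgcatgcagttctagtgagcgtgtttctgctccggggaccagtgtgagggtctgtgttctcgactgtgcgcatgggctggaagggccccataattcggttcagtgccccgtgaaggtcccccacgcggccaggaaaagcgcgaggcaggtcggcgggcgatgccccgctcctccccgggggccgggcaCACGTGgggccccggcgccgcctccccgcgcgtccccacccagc
The motifs marked, searched on both strands, were the nuclear receptor motif AGGTCA, the PPAR element (a direct repeat of that motif with 1 base between), the E-box CACGTG, the forkhead motif TGTTTAC, the CRE core TGACG, the sterol response element TCACNCCAC, CCAAT and TATAAA. The PPAR element contains the nuclear receptor motif. The E-box was found before Mgll, 44 bases from its start, and in 6.02% of all 32851 windows of that length. The forkhead motif lay 241 bases before the same start and occurs in 3.17% of all windows. Plin2 had the nuclear receptor motif, which is in 14.0% of all windows, at 218 bases and CCAAT, which is in 33.8%, at 73 bases before its start. Plin4 had CCAAT 18 bases before its start, and G0s2 had the CRE core, found in 17.8% of all windows, at 246 bases. No motif was found in the Cidec window. Of genes that did not pass, Plin5 had the nuclear receptor motif at 170 bases and CCAAT at 224 and 62 before its upstream start. Plin3 had CCAAT at 75 bases and Cideb had TATAAA at 172 bases. Over 9 members, 2 had the nuclear receptor motif and 4 had CCAAT, so these motifs were not particular to the genes that fell. The PPAR element (0.0335% of all windows) and the sterol response element (1.05%) were in none of the windows of the 9 members that the table holds. Altogether 16 motifs were looked at. The 8 not listed above were a full CRE, a longer forkhead motif, the LXR element, the E-box CATCTG, the glucocorticoid response element and its single arm TGTTCT, and HNF4 and C/EBP motifs, and they were left out after that look. Of these only TGTTCT, in 16.1% of all windows, was in a window of a gene that fell, 178 bases before the start of Mgll. A match is a match of letters and not a binding site, and none was shared by all 5 windows.

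Of the 4 perilipins measured here, Plin2 and Plin4 fell, and Plin3 and Plin5 did not pass. Plin2 is the main constitutive droplet coat protein of hepatocytes. Its log2 intensity was 11.13 at the lowest, 11.73 at the median and 11.85 at the highest of the STZ arrays, against 11.82, 12.07 and 12.23 in controls. The lowest 5 STZ values lay under all controls, and the sixth, 11.85 in STZ replicate 6, was above only control replicate 2. Plin2 averaged 11.63 ± 0.26 in STZ livers (SD, n = 6) and 12.03 ± 0.15 in control livers (SD, n = 7), a difference of -0.40 ± 0.10 with an adjusted p of 0.0229 in limma. Its call was lost in limma without STZ replicate 1 (-0.38, adjusted p = 0.0511) and without control replicate 5 (-0.36, adjusted p = 0.0512), and held in the other 11 fits that left out an array.

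Plin4, a perilipin best known from fat cells and muscle, ranged over 6.20, 6.51 and 6.87 (lowest, median and highest) in STZ arrays and 6.77, 6.83 and 7.13 in control arrays. Again 5 of 6 STZ arrays lay under every control, and STZ replicate 2 lay inside the control range. The difference was -0.37 ± 0.09 with an adjusted p of 0.0175 in limma. It did not pass in an exact rank-sum test adjusted over all genes (adjusted p = 0.122), which called 5.46% of all genes, nor in limma when the STZ group was restricted to the 4 arrays with consecutive label numbers (-0.35, adjusted p = 0.0543). Plin5, which links droplets to mitochondria in tissues that oxidise fat, ran the other way in its mean. Its values were 7.94, 8.14 and 8.49 in STZ arrays and 7.80, 7.93 and 8.19 in controls, with only 2 STZ arrays above all controls. The difference was 0.21 ± 0.09 (95% interval 0.02 to 0.39) with an adjusted p of 0.171 in limma. Plin4 and Plin5 are neighbouring genes on mouse chromosome 17 in RefSeq. Plin3, a perilipin that moves between the cytosol and new droplets, had values of 8.56, 8.76 and 8.96 in STZ arrays and 8.56, 8.66 and 8.79 in controls. Its difference of 0.10 ± 0.06 (95% interval -0.04 to 0.23) did not pass.

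Among the CIDE proteins Cidec fell, with values of 6.44, 6.54 and 7.00 (lowest, median and highest) in STZ arrays and 7.35, 7.76 and 8.67 in control arrays. Cidec, known in mouse as fat-specific protein Fsp27, drives the merging of small droplets into large ones and is a marker gene of fatty liver. The highest STZ value lay 0.35 below the lowest control. Cidec averaged 6.60 ± 0.21 in STZ livers (SD, n = 6) and 7.94 ± 0.49 in control livers (SD, n = 7), with an adjusted p of 0.000188 in limma. The spread among controls came from a wide range, with control replicates 5 and 7 at 8.51 and 8.67 and control replicate 1 at 7.35. Leaving out any 1 array gave differences between -1.44 and -1.22, all called.

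Cideb, the CIDE protein of hepatocytes that takes part in the lipidation of very low density lipoprotein, had values of 12.23, 12.44 and 12.67 in STZ arrays and 12.45, 12.53 and 12.88 in controls. The lowest 3 of 6 STZ arrays lay below all controls and the other STZ arrays inside the control range. The difference of -0.15 ± 0.08 (95% interval -0.32 to 0.02) did not pass, with an adjusted p of 0.311 in limma. Cidea, best known from brown fat and induced in fatty liver, was divided among the STZ arrays. STZ replicates 1, 2 and 3 had 6.64, 6.31 and 6.70, above the highest control of 6.12, and STZ replicate 5 had 5.61, under the lowest control of 5.72. STZ replicates 4 and 6, at 5.85 and 5.98, lay within the control range. The SD was 0.44 in STZ livers (n = 6) and 0.15 in control livers (n = 7), and the difference of 0.21 ± 0.15 had an adjusted p of 0.477 in limma. The Cidea values were below the median of all probe sets in most arrays, where arrays compress differences. In STZ arrays Cidec (6.44 to 7.00) and Plin4 (6.20 to 6.87) lay near the array medians of 6.22 to 6.31. The same limit may bear on the sizes of their differences.

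**Figure D3:**
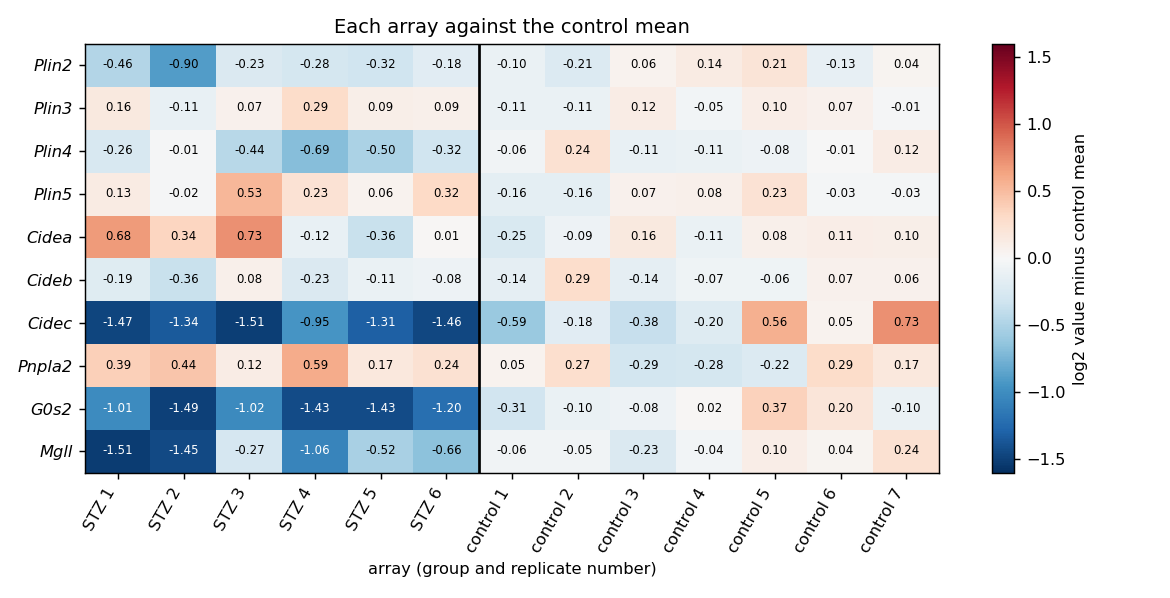
Heat map of the log2 value of each gene minus its control mean, with the genes in rows and the arrays in columns, STZ replicates left of the black line and controls right of it. The Cidec, G0s2 and Mgll rows are negative in all 6 STZ arrays, and the Cidea row is positive in STZ replicates 1, 2 and 3 and negative in STZ replicates 4 and 5.

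Of the lipolysis genes, the lipase inhibitor G0s2 and the final lipase Mgll fell, while the mean of Pnpla2 was higher without passing. G0s2 had values of 7.53, 7.70 and 8.02 (lowest, median and highest) in STZ arrays and 8.71, 8.95 and 9.39 in control arrays. No STZ array came within 0.69 of the lowest control, a wider gap than for Cidec or Mgll. G0s2 averaged 7.76 ± 0.22 in STZ livers (SD, n = 6) and 9.02 ± 0.22 in control livers (SD, n = 7), with an adjusted p of 2.51e-06 in limma, and the difference stayed between -1.32 and -1.20 without any 1 array. Pnpla2 had 9.64, 9.83 and 10.11 in STZ arrays and 9.22, 9.57 and 9.81 in control arrays, with 3 of 6 STZ arrays above all controls. Its difference of 0.32 ± 0.11 (95% interval 0.09 to 0.56) had an adjusted p of 0.0845 in limma. Only the fit without control replicate 6 called it (0.37, adjusted p = 0.0490).

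Mgll had values of 8.81, 9.46 and 10.05 in STZ arrays and 10.09, 10.28 and 10.56 in control arrays. The groups were separated by only 0.04, since STZ replicate 3 came close to control replicate 3. The STZ arrays were spread out, with STZ replicates 1 and 2 at 8.81 and 8.87 and an SD of 0.51 (n = 6), against 0.15 in control livers (n = 7). The adjusted p was 0.00238 in limma, and the difference lay between -1.04 and -0.79 when any 1 array was left out.

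Whether genes related by role changed unequally was tested within arrays for 3 pairs, with an exact two-sided permutation test of the group means over all 1716 splits, adjusted over the 3 pairs. Such a difference says that a pair moved apart and nothing about which gene is more abundant. G0s2 minus Pnpla2, inhibitor against lipase, was between -2.52 and -1.64 in the 6 STZ arrays and between -0.87 and 0.09 in the 7 controls. The means were -2.08 in STZ livers and -0.50 in control livers, a difference of -1.59 ± 0.20 (± is the pooled SE of the 2 means for pairs), so the G0s2 to Pnpla2 signal ratio was 3.01-fold lower in STZ livers. Cidec minus Cideb differed by -1.19 ± 0.22, with -6.23 to -5.36 in STZ arrays and -5.11 to -3.98 in controls. Plin2 minus Plin5 differed by -0.60 ± 0.07, with 3.19 to 3.69 in STZ arrays and 3.98 to 4.14 in controls. In each pair all 6 STZ arrays lay below all 7 controls. The exact p and the adjusted exact p of the permutation test were 0.000583, the smallest this design allows. G0s2 and Cidec alone already kept the groups apart. The pairs were chosen with earlier results of these data known, so these p-values describe the pairs and are no independent test. The Plin2 to Plin5 difference separated the groups although each gene alone overlapped between them.

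**Figure D4:**
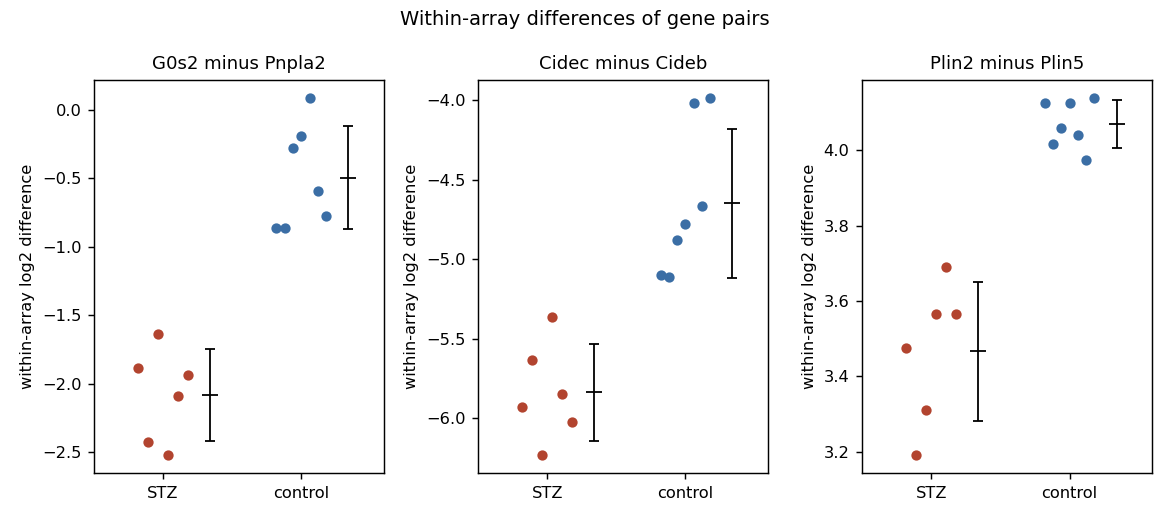
Within-array log2 difference of 3 gene pairs in each array, STZ left and control right. Points are mice and the bar is the mean with its SD (n = 6 STZ, n = 7 control), and the 2 groups do not overlap in any of the 3 panels.

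The 10 genes did not rank the STZ arrays alike. STZ replicate 2 had the lowest value of its group for 5 genes (Cideb, Plin2, Plin3, Plin5 and G0s2) and the highest for Plin4. STZ replicate 3 had the highest Cidea, Cideb, Plin5 and Mgll and the lowest Cidec and Pnpla2. STZ replicate 4 was lowest for Plin4 and highest for Cidec, Plin3 and Pnpla2. In the controls, replicate 1 was lowest for 5 genes (Cidea, Cideb, Cidec, Plin3 and G0s2), and replicate 5 was highest for Plin2, Plin5 and G0s2. Without STZ replicate 2 the Plin2 difference was -0.30 and still passed in limma (adjusted p = 0.0249).

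Other genes of the pathway were read from the same fit, as counts beside the 9.12% of all genes called. Of 18 other genes of the droplet coat and of droplet formation, 17 were measured, 5 fell, none rose, and the median difference was -0.07. Fitm1 and Fitm2, which help newly made fat to bud from the endoplasmic reticulum, were among those lower. Fitm1 had 7.62, 8.67 and 10.32 (lowest, median and highest) in STZ arrays and 10.74, 10.94 and 11.02 in control arrays, a difference of -2.16 ± 0.33 (adjusted p = 0.000481 in limma), larger than that of any of the 10 genes. As with Mgll, its lowest STZ values were in STZ replicates 1, 2 and 4. Fitm2 fell by 0.40 ± 0.06, the triglyceride-forming enzyme gene Dgat2 by 0.36 ± 0.06, the caveolin gene Cav1 by 0.61 ± 0.13 and the droplet-associated hydrolase gene Ldah by 0.34 ± 0.08. Plin1, the perilipin of white fat cells, was -0.03 ± 0.07, Hsd17b13, a droplet enzyme of hepatocytes, 0.17 ± 0.07, and the seipin gene Bscl2 -0.07 ± 0.09, none of which passed.

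Of 10 other hydrolases of neutral fat and their cofactors, all measured, 5 fell, none rose, and the median difference was -0.38. Pnpla3, a relative of Pnpla2 that responds to feeding and is linked to fatty liver in people, fell by 0.98 ± 0.12 (adjusted p = 7.33e-05 in limma), with 6.64 to 7.00 in STZ arrays and 7.33 to 8.16 in controls. The carboxylesterase genes Ces3a (-1.96 ± 0.51), Ces3b (-1.67 ± 0.36) and Ces1d (-0.61 ± 0.11) and the arylacetamide deacetylase gene Aadac (-0.47 ± 0.08) were lower as well. The STZ arrays were spread out for Ces3a, at 8.498 to 12.746 against 12.771 to 13.057 in controls. Ces3b had 9.175 to 12.259 in STZ arrays and 12.114 to 12.335 in controls, with STZ replicate 5 inside the control range. Ces3a and Ces3b are close paralogs whose probes can cross-hybridise, and the Ces3a call was lost with a trended, robust variance (adjusted p = 0.0770 in limma) and without STZ replicate 2 (adjusted p = 0.0528). Abhd5, the coactivator of Pnpla2, was 0.02 ± 0.07 and did not pass. Lipe, the hormone-sensitive lipase, was -0.29 ± 0.09 and missed the threshold with an adjusted p of 0.0565, which it passed in 7 of the 22 alternatives.

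Of 9 transcription regulators known to act on droplet genes, all measured, 5 fell and 1 rose, with a median difference of -0.25. Ppara, the fatty acid-sensing receptor of hepatocytes, fell by 0.79 ± 0.09 (adjusted p = 3.90e-05 in limma), and its values of 9.94 to 10.37 in STZ arrays lay below 10.67 to 11.13 in controls. Pparg, the related receptor that drives Cidec and other droplet genes in fatty liver, fell by 0.79 ± 0.12, with 5 of 6 STZ arrays below all controls. Creb3l3, a fasting-responsive membrane-bound factor of hepatocytes, fell by 0.25 ± 0.06. Srebf1 and Mlxipl, which drive fat synthesis, also fell, and the coactivator Ppargc1a rose. The Creb3l3 call was lost without STZ replicate 1 (-0.22, adjusted p = 0.0564 in limma) and the Mlxipl call in 6 fits without 1 array. In the exact rank-sum test Srebf1, Mlxipl and Creb3l3, and of the other lists Cav1, Ldah and Ces3b, did not pass (adjusted p = 0.0628 to 0.122). Foxo1, through which insulin withdrawal raises Pnpla2 in mouse cells, was -0.0045 ± 0.131 and did not pass, which concerns its transcript and not its activity. Whether these regulators bear on the droplet genes was not tested.

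**Figure D5:**
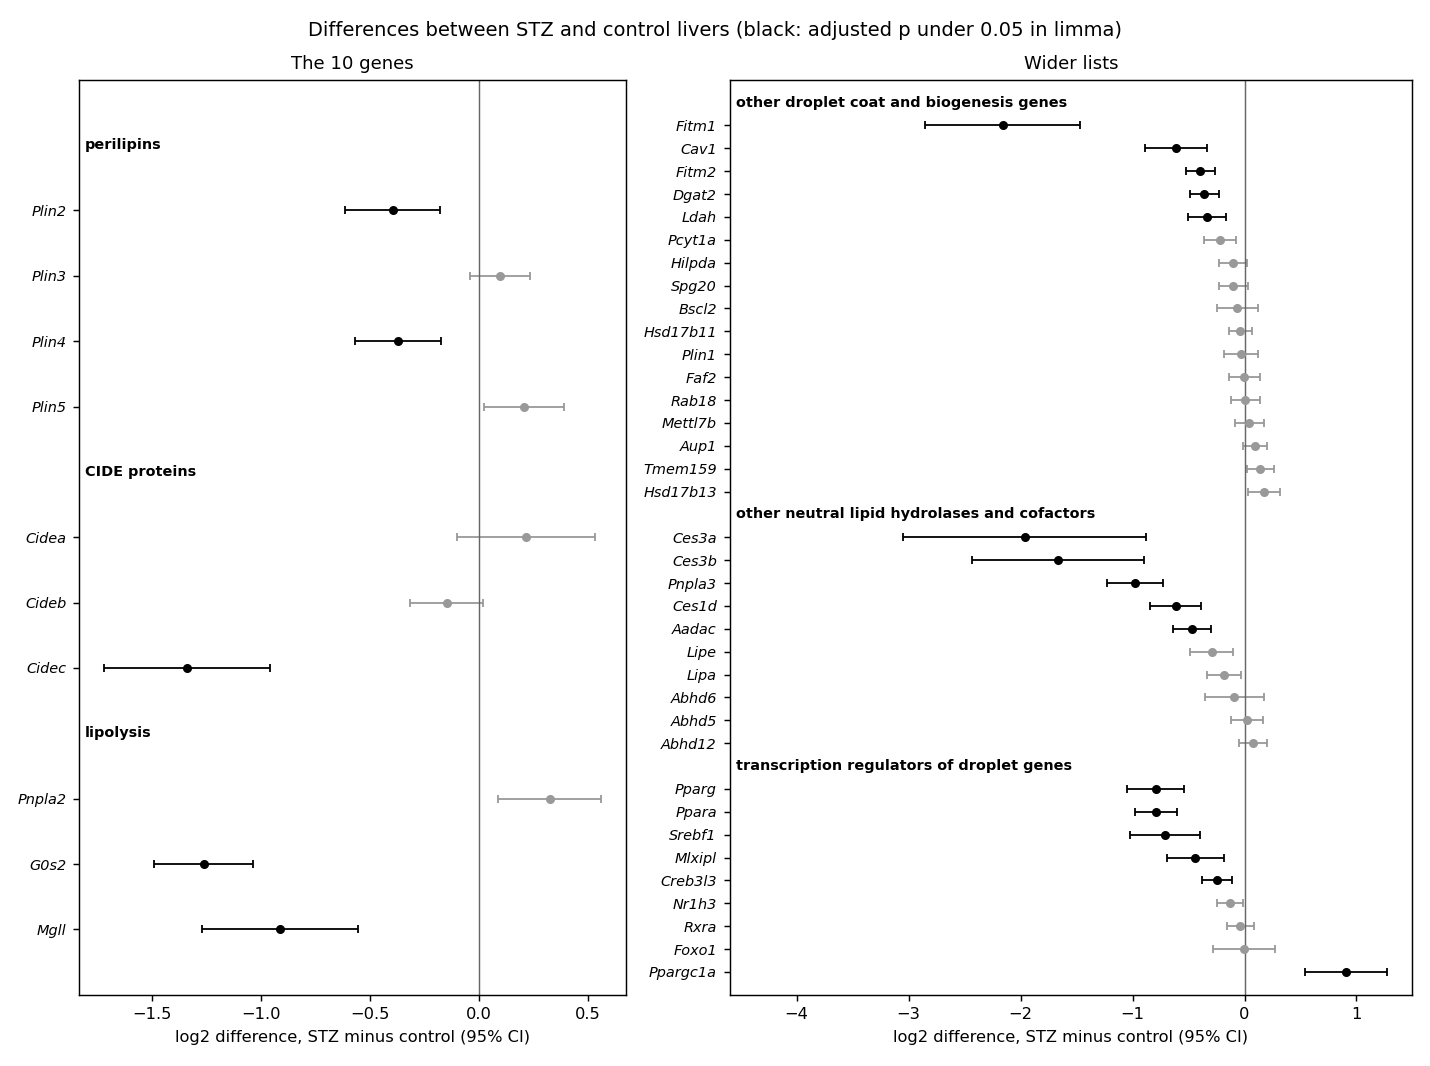
Log2 difference, STZ minus control, with its 95% confidence interval from limma for the 10 genes (left) and for the 36 measured genes of the 3 wider lists (right). Black points passed at an adjusted p under 0.05 and grey points did not. Cidec, G0s2 and Mgll are the lowest on the left, and Fitm1, Ces3a and Ces3b on the right.

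As for the labelled tissue, all 6 hepatocyte markers were bright and lay between 11.58 and 13.70 in every array, though 3 of them passed in limma with small differences. Apoa1 (-0.23 ± 0.06) and Ttr (-0.18 ± 0.05) were lower and Cps1 (0.16 ± 0.04) higher, and for Ttr and Cps1 the groups did not overlap. Refitted 13 times with 1 array removed each time, the Apoa1 call held in 13 fits, the Cps1 call in 8 and the Ttr call in 2. Because Cidec, Cidea, Plin4 and Pnpla2 are also fat cell genes, 8 adipocyte markers were examined, of which 7 were measured, 1 rose (Lpl, 0.83 ± 0.21) and 1 fell (Retn, -0.42 ± 0.08). In the same refits the Lpl call held 11 times and the Retn call 13 times. The adipocyte list mean was 5.60 to 5.88 in STZ arrays and 5.61 to 5.78 in controls. Adipoq, the defining fat cell gene, averaged 4.26 ± 0.11 in STZ livers (SD, n = 6) and 4.08 ± 0.12 in control livers (SD, n = 7). Its level was at percentile 6.56 of all genes, where arrays compress differences. Of 7 macrophage markers 4 rose, with a list mean of 8.59 to 9.22 in STZ arrays and 8.42 to 8.84 in controls. These were Cd5l (0.62 ± 0.15), called in all 13 refits, Vsig4 (0.41 ± 0.11) in 12, Clec4f (0.31 ± 0.08) in 9 and Cd68 (0.47 ± 0.13) in 6. Of 6 markers of stellate cells, which hold droplets of retinyl ester, only Lrat, the enzyme that forms that ester, fell (-0.47 ± 0.08), and the list mean was 7.68 to 7.83 in STZ arrays and 7.72 to 7.82 in controls. Of 5 sinusoidal endothelial markers 1 rose, Lyve1. The part of these cell types in the differences was not tested.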

How the data were processed

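Total RNA of 13 livers was measured on Affymetrix gene arrays, 1 array per mouse, and groups were taken from the labels. The deposited values are log2 intensities that the authors computed by RMA, with version 1.2 of Affymetrix Expression Console named in the submitters' processing notes. RMA brings arrays to a common distribution, so an overall change in RNA per cell would not be seen. The sources used here do not give the authors' annotation or genome build, batches or detection calls.

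Probe sets with exactly 1 gene symbol in the platform annotation were kept (21789 of 35556), and each gene was represented by the probe set with the highest mean, which gave 19938 genes with no filter on dim genes. All 10 members had 1 probe set. The 6 STZ arrays were set against the 7 controls with limma 3.58.1 under R 4.3.3 (lmFit and eBayes, two-sided, Benjamini-Hochberg over all genes, threshold 0.05), tested on simulated data first. Intervals are 95% intervals of that fit. Pairs of members were compared by exact permutation in Python 3.11.15. The number of arrays limits the precision.

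All 10 members are named whatever their result, and of each wider list genes that passed, up to 6, with some further genes named for their role after their values were seen. Members, pairs, motifs and lists were chosen with earlier results of these data known, so counts over them and the p-values of the pairs are descriptions. Label numbers are 29 to 32, 40 and 42 for STZ mice and 1 to 7 for controls, and a batch that followed them cannot be told apart from treatment. The labels give no pairing of mice by replicate number. Deviations of arrays with the same number correlated between -0.09 and 0.19, which cannot exclude a pairing.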

Additional observations from a re-analysis of the deposited data

Results flagged for a closer look

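An array stood apart from the rest of its group in 3 of 98 comparisons of single genes or gene pairs within a group, where chance marks about 1 in 20. Cidec in STZ replicate 4 was 6.997, while the other STZ arrays lay between 6.436 and 6.636, and it was still below every control. Nr1h3, the gene of the oxysterol receptor, was 9.657 in STZ replicate 2, with the other STZ arrays between 9.902 and 9.921. Tmem159 (Ldaf1) was 6.845 in control replicate 4, with the other controls between 6.57 and 6.674.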

How the results depend on the processing

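Each gene was fitted again under up to 22 alternatives, of which 13 left out 1 array. Of 219 such values of the 10 members, 214 kept their direction and their side of the threshold, 4 lost the call, 1 gained it and 0 reversed. The lost calls were those of Plin2 and Plin4 given above, and the gained one was Pnpla2. The number of members that passed was 4 to 6 over the fits that left out an array. Over the same fits the number of all genes that passed was 1399 to 2168. With the exact rank-sum test 1088 of all genes and 4 members passed, with 3 genes each in the coat and regulator lists. Its smallest p with these group sizes is 0.00117, which limits it. With replicate number as a block, leaving out control replicate 7, 1256 genes and the same number of members, 5, passed, and the within-array differences were -1.63 for G0s2 minus Pnpla2, -1.08 for Cidec minus Cideb and -0.59 for Plin2 minus Plin5. The calls of Mlxipl and Creb3l3 were lost with the block. Of 790 values of genes in the 3 wider lists, cell type markers not included, 17 lost the call, 14 gained it and 0 reversed. A change of sign counted as reversed only where the main or the alternative value passed. Small differences that did not pass could change sign, such as Plin1 (-0.07 to 0.01) and Foxo1 (-0.07 to 0.06) when 1 array was left out. Leaving out an array took away the Mlxipl call 6 times. The probe set alternative could not move the members, which have 1 probe set each, and Cidea was not among the genes brighter than the median gene. The rank-sum test, the trended, robust variance and the fit of the brighter genes used unchanged differences. In these a call could change but a direction could not.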
